A study of Rattus norvegicus with 24 samples.

Results

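The lung miRNAs of 6 rats that breathed filtered clean air are described here, as measured on 1 array per rat. The rats were the control group of an inhalation study of hexanal with 24 arrays in all, and no exposed array was used. All 719 rat miRNAs on the array were ranked by their total gene signal, the summary of all probes of a miRNA in scanner units, and a miRNA was counted as detected where the scanner software marked it so. On all 6 arrays 269 of the 719 miRNAs were detected.

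The animals were Fischer-344 rats that arrived at 7 to 8 weeks of age, with no genetic change stated and no hexanal given. Per the labels the study's animals spent 4 h a day in the chamber, 5 days a week, over a course of 5 weeks. The 3 males carried the animal numbers 1, 2 and 3 and the 3 females the numbers 21, 22 and 23, and each array is named here by sex and number. The RNA came from lung tissue as a whole, so that fewer cells of a type and less RNA per cell cannot be told apart. The 3 male arrays lay on 1 slide and the 3 female arrays on another, so that sex and slide cannot be told apart in any comparison of males with females. The female arrays were also dimmer. The summed signal was 374690, 331356 and 361651 scanner units on the male arrays and 244234, 219512 and 234888 on the female arrays. Shares of an array's summed signal and ratios within an array do not depend on a brightness that scales all spots alike, and they carry most of the description. No spot was saturated.

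A miRNA is a short RNA that guides an Argonaute protein to messenger RNAs, which are then repressed. Pairing rests mainly on the seed, bases 2 to 8 of the miRNA, and miRNAs with the same seed form a family that can share targets. Each miRNA is cut from a hairpin, and the 5p and 3p arms of that hairpin form a duplex from which usually the guide strand is kept and the other strand is degraded. In the lung, miR-126 is known from endothelium, miR-143 from smooth muscle, the miR-200 family from epithelium and the let-7 family from many differentiated cells.

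The mature sequences that carry the ranking are given first, since the brightest miRNAs fall into few seed groups. They are RefSeq's sequences for the assembly GRCr8, read 5′ to 3′, with the seed in capitals. The prefix rno of each name is left out. A first set shares the let-7 seed and differs by few bases elsewhere:
let-7a-5p: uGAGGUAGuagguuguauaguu
let-7c-5p: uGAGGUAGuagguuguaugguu
let-7f-5p: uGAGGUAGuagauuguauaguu
let-7b-5p: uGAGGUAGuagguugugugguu
let-7i-5p: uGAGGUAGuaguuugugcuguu
let-7d-5p: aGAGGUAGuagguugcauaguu
let-7e-5p: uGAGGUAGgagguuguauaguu
miR-98-5p: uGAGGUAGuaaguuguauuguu

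A second set holds the leading members of the other bright families, which have seeds of their own:
miR-26a-5p: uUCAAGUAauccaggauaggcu
miR-26b-5p: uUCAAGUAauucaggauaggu
miR-126a-3p: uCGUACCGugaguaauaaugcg
miR-23a-3p: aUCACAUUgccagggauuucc
miR-23b-3p: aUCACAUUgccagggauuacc
miR-29a-3p: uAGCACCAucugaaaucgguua
miR-29b-3p: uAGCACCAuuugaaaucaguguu
miR-29c-3p: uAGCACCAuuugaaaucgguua
miR-143-3p: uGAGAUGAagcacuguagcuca
miR-24-3p: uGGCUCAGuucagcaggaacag
miR-30a-5p: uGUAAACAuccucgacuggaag
miR-30c-5p: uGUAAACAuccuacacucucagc
miR-16-5p: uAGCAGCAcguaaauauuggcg
miR-27a-3p: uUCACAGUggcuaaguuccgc

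The lung miRNA signal was concentrated in few miRNAs, and to nearly the same degree in every rat. On each of the 6 arrays 14 miRNAs held 50% of the summed signal, and 59 to 61 miRNAs held 90% of it. The brightest miRNA held 6.64% ± 0.190 (SD, n = 6), the 5 brightest 24.8% ± 0.541, the 10 brightest 41.2% ± 0.812, the 20 brightest 62.7% ± 0.679 and the 100 brightest 96.3% ± 0.113. The share of the 10 brightest was 40.9%, 40.7% and 40.7% in the males and 42.1%, 40.3% and 42.3% in the females. The sexes overlapped (exact permutation test, two-sided, p = 0.4, adjusted over 3 tests 0.6). The number of miRNAs that held 50% did not vary (p = 1 in the same exact test, adjusted 1).

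Nearly all of the other miRNAs on the array were dim or not detected. Of the 719 miRNAs, 358 (49.8%) were detected on no array, 269 (37.4%) on all 6 and 92 on 1 to 5. The number detected was 323, 328 and 340 on the male arrays and 272, 292 and 301 on the female arrays. The groups did not overlap, but 3 arrays against 3 cannot give an exact two-sided p below 0.1, which was the p found (adjusted over 3 tests 0.3). Of the 92 miRNAs detected on some arrays, 82 were detected on more male than female arrays and 4 on more female arrays, beside the brighter male slide. Males alone gave 15 miRNAs detected in 3 of 3 against 0 of 3, and females gave 0. Array precision is limited by the number of rats, 3 of each sex.

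The 5 dimmest of the miRNAs detected on all arrays and the 5 brightest of those that missed it mark this border. Inside it, miR-449c-5p, a miRNA of ciliated cells, had signals of 8.13, 2.38 and 3.61 in the males and 3.41, 5.07 and 2.16 in the females. miR-342-5p, miR-760-5p, miR-30c-1-3p and miR-211-5p had mean signals of 4.17, 4.69, 4.79 and 5.29. Outside it, miR-1-3p, a miRNA of heart and skeletal muscle, had signals of 144, 38.7 and 94.7 in the males and 23.2 in female 21 and was not detected in females 22 and 23. No other miRNA detected on only some arrays was as bright on any array. miR-31a-3p, miR-208a-5p, miR-6324 and miR-224-5p missed detection on 1 female array each.

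**Figure D1:**
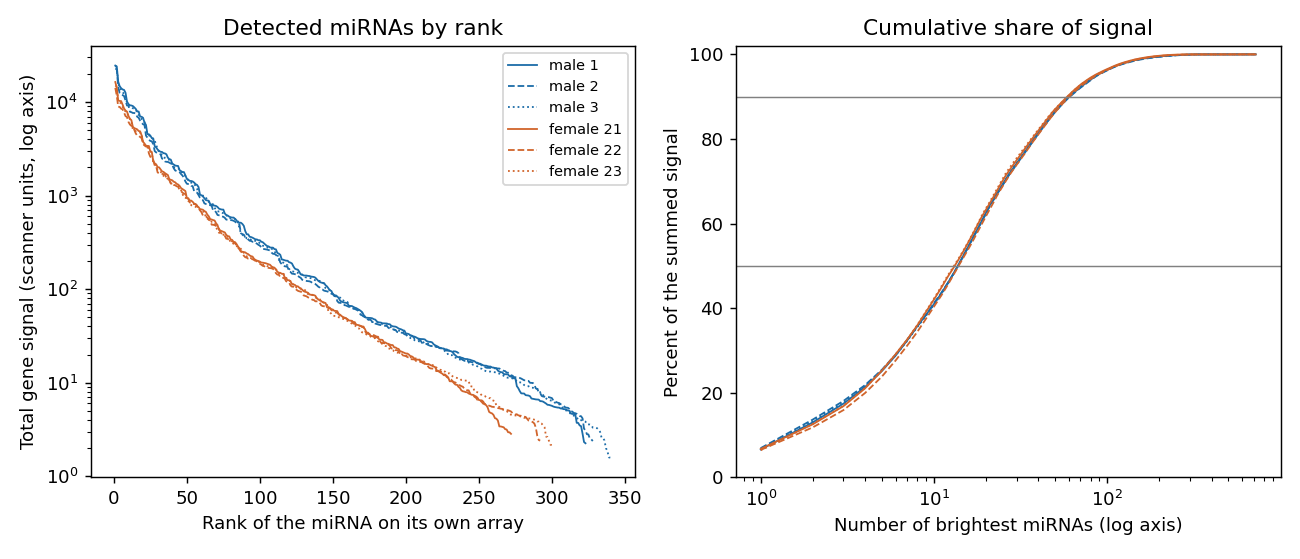
Total gene signal of the detected miRNAs (scanner units, log axis) against rank on their own array, and the cumulative percent of summed signal against the number of brightest miRNAs (log axis), with 1 line per array, males in blue and females in orange. The female curves lie below the male curves on the left, while on the right all 6 curves cross 50% at 14 miRNAs and 90% at 59 to 61.

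miRNAs that were named early were detected more often. Names carry a number given roughly in order of discovery. Of 249 miRNAs with numbers below 200, 138 (55.4%) were detected on all 6 arrays, and they held 89.2% ± 0.424 of the summed signal (SD, n = 6). The shares detected were 32.9% of the 240 miRNAs with numbers from 200 and below 500, 26.4% of the 110 from 500 and below 1000 and 19.2% of the 120 from 1000 on. The brightest of that last class, miR-1224, had rank 39.

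miR-26a-5p and miR-126a-3p led the ranking in every rat. miR-26a-5p, reported as a brake on cell growth, had signals of 24605, 22849 and 24520 scanner units in the males and 16394, 14195 and 15050 in the females. Its share of the summed signal was 6.64% ± 0.190 (SD, n = 6), between 6.41% and 6.90%. miR-126a-3p, encoded in an intron of the endothelial gene Egfl7, had signals of 24095, 22431 and 23503 in the males and 14241, 11739 and 14683 in the females. Its share was 6.19% ± 0.516. miR-26a-5p ranked 1 and miR-126a-3p ranked 2 on all 6 arrays. Their order turned with the intensity of the brightest probe and after a normexp background correction. Thus no order of these 2 is claimed beyond the total gene signal. A rank here is a rank of brightness, since probes differ in how strongly they bind.

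The places after them changed between rats. miR-23a-3p, a member of the cluster with miR-27a and miR-24, held 4.27% ± 0.161 and let-7a-5p held 3.99% ± 0.209, and each ranked from 3 to 5. miR-29a-3p, whose family represses collagens and other matrix genes, held 3.74% ± 0.199 at ranks 4 to 6. let-7c-5p held 3.67% ± 0.484 at ranks 3 to 8, and let-7f-5p held 3.51% ± 0.227 at ranks 5 to 8. miR-143-3p held 3.44% ± 0.133 at ranks 7 to 9. These neighbours in the order overlapped in their shares. let-7b-5p, with 2.90% ± 0.557, had the widest span among the 20 brightest, from rank 7 to rank 15. miR-24-3p, which ranked 9 or 10 on every array, held 2.81% ± 0.107.

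The second 10 lay between 2.65% and 1.79%. They were miR-30a-5p, miR-23b-3p, miR-29b-3p, miR-30c-5p, miR-30b-5p, miR-16-5p, miR-27a-3p, miR-125b-5p, let-7i-5p and miR-29c-3p. miR-125b-5p, a vertebrate relative of the worm miRNA lin-4, held 1.85% ± 0.0691. The last in the list, miR-29c-3p, held 1.79% ± 0.311, and its signals were 7939, 6802 and 7351 in the males and 3604, 3448 and 3455 in the females. No male value of miR-29c-3p overlapped a female one. This is not particular to it, since the male arrays were brighter, and the signals of miR-26a-5p and miR-126a-3p did not overlap either. The 20 brightest by the total gene signal were also the 20 brightest by the brightest probe, by summed probes and after a normexp background correction.

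**Figure D2:**
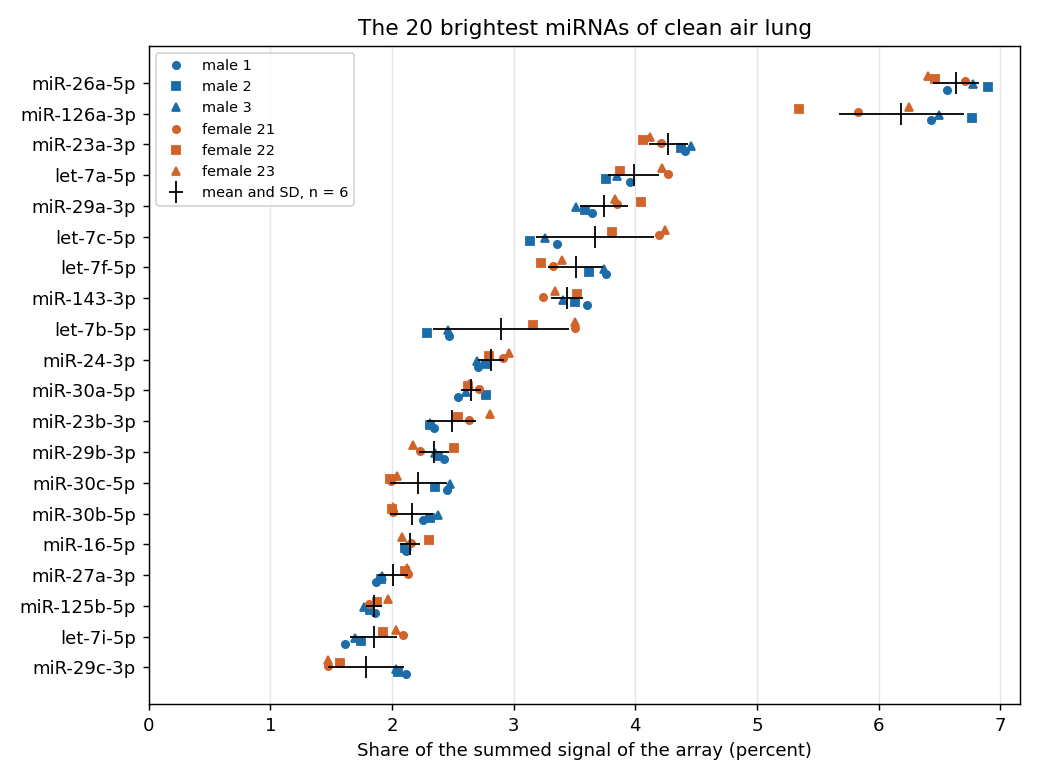
Share of the summed signal of an array (percent) for the 20 brightest miRNAs, with 1 point per array (males in blue, females in orange) and a black mark with bars for the mean and SD of 6 arrays. miR-26a-5p and miR-126a-3p stand apart at 6.64% and 6.19%, and let-7b-5p and let-7c-5p have the male and female means most widely apart.

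The arrays resembled each other closely. Over the 269 detected miRNAs, Pearson's r of the log2 signals was 0.991 to 0.996 for pairs of arrays of the same sex and slide and 0.982 to 0.986 for the other pairs. This is a description across miRNAs, which are not independent. Pairs of the first kind shared 19 or 20 of their 20 brightest miRNAs and other pairs shared 18 or 19.

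Grouped by seed, the signal was more concentrated still, although summing miRNAs into groups can never lower the share of the brightest. The 719 miRNAs formed 613 families, of which 216 had a member detected on all arrays, and the 5 brightest families held 49.1% ± 0.657 of the summed signal (SD, n = 6, between 48.5% and 50.1%). The 10 brightest held 69.7% ± 0.691. Seeds came from RefSeq sequences for 641 miRNAs and from the name for 10, and 68 miRNAs without a sequence were counted as families of their own.

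The let-7 family, which is known to repress Ras and Hmga genes and to rise as cells mature, was the brightest. Its 8 members on the array were all detected in every rat and held 17.7% ± 1.44 of the signal. The family's share was 16.8%, 16.2% and 16.6% in the males and 19.5%, 17.9% and 19.4% in the females, with no overlap. let-7a-5p supplied 22.5% of it, let-7c-5p 20.6%, let-7f-5p 19.98%, let-7b-5p 16.2% and let-7i-5p 10.4%. miR-98-5p supplied the smallest part, 0.705%. Non-overlap of the sexes was not particular to let-7 among the 10 brightest families. The shares of miR-30, miR-26 and miR-126a (higher in males) and of miR-27 and miR-24 (higher in females) did not overlap either. Those of the miR-29, miR-23, miR-15 and miR-16, and miR-143 families did.

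The let-7 members shown above are so alike that a probe for one may also bind another. Counted from 1 at the 5′ end, let-7a-5p and let-7c-5p differ by A19G, let-7a-5p and let-7f-5p by G12A, and let-7a-5p and let-7e-5p by U9G. Their signals were unequal in some of these pairs and near equal in others. The log2 ratio of let-7a-5p to let-7e-5p was 3.10 ± 0.22 (SD, n = 6), while that of let-7a-5p to let-7c-5p was 0.13 ± 0.13. Among the 236 detected miRNAs with a sequence, 15 pairs differed by 1 base and 28 pairs by 1 or 2. The 38 miRNAs of those 28 pairs held 48.3% of the summed signal and included 11 of the 20 brightest. Cross-binding between them was not tested.

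The miR-30 family, common in epithelia and in many other tissues, came next with 8.44% ± 0.468. Of its 6 members 5 were detected on all arrays and miR-384-5p on none. miR-30a-5p, miR-30c-5p and miR-30b-5p supplied 31.5%, 26.2% and 25.6% of the family. The miR-26 family held 8.26% ± 0.317, of which 80.4% was miR-26a-5p and 19.6% miR-26b-5p. The miR-29 family held 7.88% ± 0.296 and the miR-23 family 6.76% ± 0.115, the smallest SD relative to its mean among these 5.

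The other bright families were smaller. miR-126a-3p was alone in its seed with the 6.19% given above. The miR-15 and miR-16 family, which restrains the cell cycle, held 4.93% ± 0.109 over miR-16-5p, miR-195-5p, miR-497-5p, miR-322-5p and miR-15b-5p, and miR-16-5p supplied 43.6% of it. miR-143-3p, alone in its seed, held 3.44% ± 0.133. The miR-27 family, with miR-27a-3p and miR-27b-3p, held 3.23% ± 0.148, and miR-24-3p, alone in its seed, closed the 10 with 2.81% ± 0.107.

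**Figure D3:**
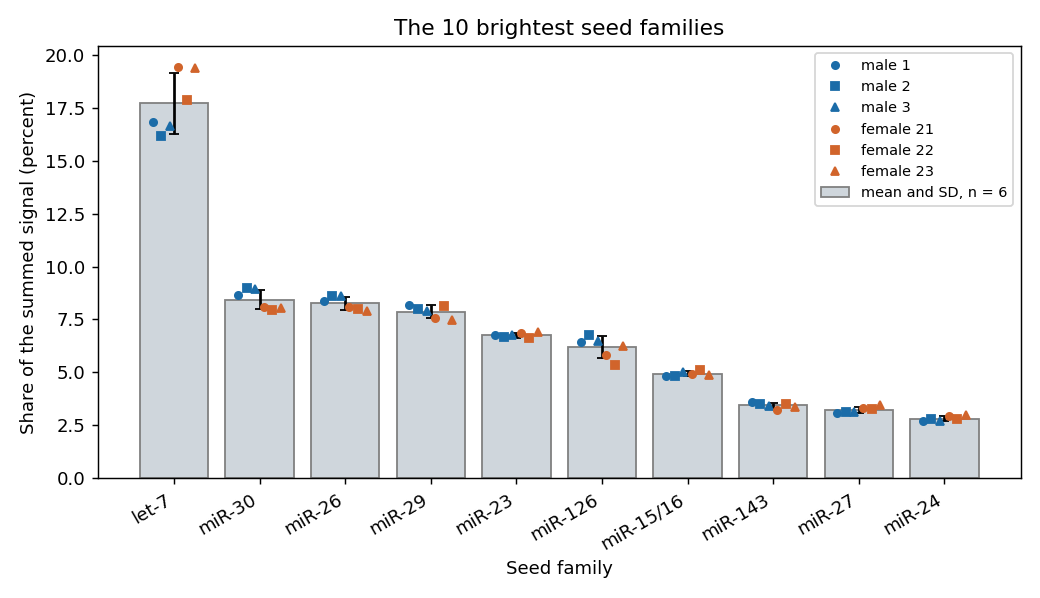
Share of the summed signal (percent) of the 10 brightest seed families, with bars from 0 for the mean, error bars for the SD of 6 arrays and 1 point per array. The let-7 bar stands at 17.7%, with all 3 females above all 3 males, and the next 4 families lie between 6.76% and 8.44%. Male and female points also lie apart for miR-30, miR-26, miR-126, miR-27 and miR-24.

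Hairpins that lie close together in the genome are often cut from 1 transcript, and their miRNAs differed in brightness to very different degrees. RefSeq's GRCr8 places at least 2 detected hairpins within 10 kb of each other on the same strand in 31 groups. The brightest miRNA of a group exceeded that of its dimmest hairpin by a median of 3.29-fold, with a range from 1.04 to 231-fold. The groups at both ends of that range, and some between them, hold miRNAs that also arise from hairpins elsewhere. miR-195-5p and miR-497-5p, a pair on chromosome 10, differed by 1.17-fold (1.11 to 1.22 over the arrays), and miR-200a-3p and miR-200b-3p on chromosome 5 by 1.20-fold (1.11 to 1.31). miRNAs with no listed sequence for either arm were not placed, so that a group may lack members and be less even than given. miR-429, an epithelial miRNA at a mean signal of 716, is in none of the 31. In the group of miR-23a, miR-24 and miR-27a on chromosome 19 the fold was 2.13 (1.93 to 2.36), although miR-24-3p also arises from a hairpin elsewhere.

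Other groups were far more uneven. miR-143-3p exceeded miR-145-5p, its neighbour on chromosome 18 and likewise known from smooth muscle, by 8.04-fold (5.92 to 11.1). In the miR-17 to miR-92a group on chromosome 15, known for promoting growth, miR-19b-3p at a mean signal of 1865 exceeded miR-18a-5p at 37.4 by 49.3-fold (42.9 to 54.8), although miR-19b-3p also arises from the X chromosome. On the X chromosome miR-322-5p at 2315 exceeded miR-351-5p at 11.9 by 208-fold (164 to 286). These folds compare different probes and are given without a test.

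The arms of a hairpin were mostly far apart in signal. For 262 hairpins both arms were on the array. Of these, 57 had both arms detected in all rats, 36 had the 5p arm in all and the 3p arm in none, 42 had the reverse, 70 had no arm on any array and 22 had 1 arm on all arrays with the other on some. The remaining 35 had an arm on some arrays and none on all. In the 57 hairpins the brighter arm exceeded the other by a median of 12.4-fold. The arms were at least 10-fold apart in 30 hairpins and at least 100-fold apart in 12, and less than 2-fold apart in 9. The 5p arm was the brighter in 33 and the 3p arm in 24. In 52 of the 57 the same arm was the brighter on all 6 arrays.

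The hairpins with only 1 arm detected included several of the brightest miRNAs. miR-26a-5p at rank 1, let-7b-5p, miR-23b-3p, miR-16-5p, miR-27a-3p and miR-27b-3p were detected in every rat, while the other arm of each was detected in none. No ratio can be given for these, because an arm that was not detected is listed at 0.1 and not measured.

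Among the hairpins with both arms measured, miR-26b leaned most to the 5p arm. Its log2 ratio of 5p over 3p was 9.19, 9.07 and 9.17 in the males and 9.98, 9.31 and 10.02 in the females, a mean of 9.46 ± 0.43 (SD, n = 6) or 703-fold. For miR-21, widely known from injury and inflammation, the mean was 8.79 ± 0.13 (444-fold), with a miR-21-5p signal of 4273 and a miR-21-3p signal of 9.68. let-7i had 8.37 ± 1.01, miR-151 7.43 ± 0.29 and let-7d 7.31 ± 0.40.

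On the other side miR-23a leaned most to the 3p arm. Its log2 ratio was -11.39, -11.00 and -10.88 in the males and -11.67, -11.08 and -10.77 in the females, a mean of -11.13 ± 0.34 or 2242-fold, with miR-23a-5p at a mean signal of only 5.77. miR-29a had -9.06 ± 0.66 (533-fold), miR-143 -7.74 ± 0.28 (214-fold), miR-101a -7.37 ± 0.35 (165-fold) and miR-200b -6.39 ± 0.11 (83.7-fold). Both arms of miR-126a were bright. miR-126a-5p, at rank 28, had a mean signal of 2736 against 18449 for miR-126a-3p, a ratio of -2.97 ± 0.57.

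A few hairpins gave arms of like brightness. The 5 nearest to equality were miR-760 with a mean log2 ratio of -0.19 ± 0.37, miR-542 with -0.24 ± 0.27, miR-139 with 0.38 ± 0.56, miR-351 with 0.49 ± 0.74 and miR-547 with 0.75 ± 0.75. In each of them the brighter arm was not the same on all arrays. All were dim, with mean signals of at most 100.2 for either arm.

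**Figure D4:**
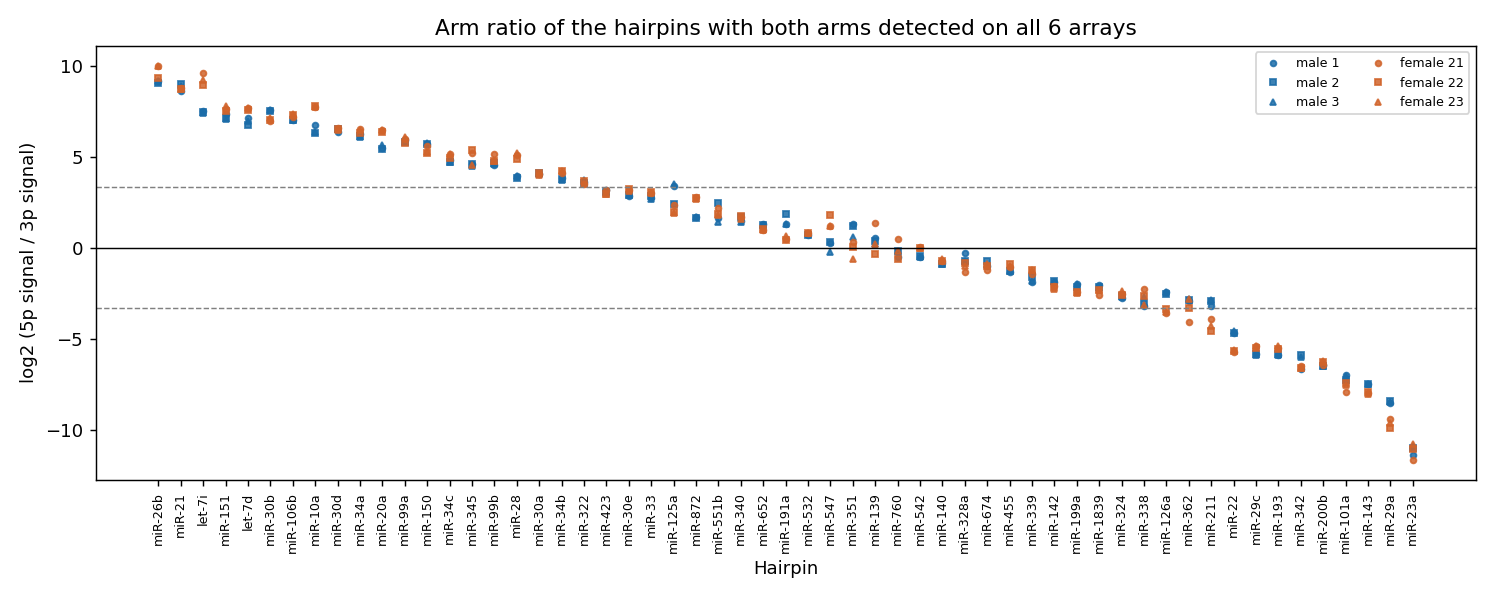
Log2 ratio of the 5p to the 3p signal for the 57 hairpins with both arms detected on all 6 arrays, ordered by their mean, with 1 point per array (males in blue, females in orange) and dashed lines at 10-fold. The ratios run from 9.46 for miR-26b to -11.13 for miR-23a, and 30 hairpins have means beyond the dashed lines.

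The brighter arms shared a first base more often than the dimmer ones did. Argonaute proteins are known to hold a first U or A well. Of 43 hairpins with both arms detected and both sequences listed, the brighter arm began with U in 58.1% and the dimmer arm in 16.3%, while the dimmer arm began with C in 44.2% and the brighter in 14.0%. In 20 hairpins the brighter arm alone began with U, in 2 the dimmer arm alone, in 5 both and in 16 neither. Some of the dimmer arms are shown here, with bases 2 to 8 in capitals. Their brighter arms are printed above, except miR-21-5p, which is given beside miR-21-3p:
let-7i-3p: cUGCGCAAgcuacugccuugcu
miR-26b-3p: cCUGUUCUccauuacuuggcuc
miR-21-5p: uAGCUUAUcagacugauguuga
miR-21-3p: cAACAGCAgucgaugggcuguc
miR-29a-5p: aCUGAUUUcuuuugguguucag
miR-143-5p: gGUGCAGUgcugcaucucugg
miR-126a-5p: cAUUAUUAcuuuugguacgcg

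The same base marked the bright miRNAs as a whole. U was the first base of 17 of the 19 sequenced miRNAs among the 20 brightest, with miR-23a-3p and miR-23b-3p the exceptions that begin with A. It began 46.6% of the 236 sequenced miRNAs detected on all arrays, 28.2% of the 319 detected on none and 36.0% of all 641. Among the 50 dimmest detected miRNAs it began 29.3%, and C began 36.6%. The median share of G and C was 47.8% in the detected and 47.4% in the undetected miRNAs, and 54.5% in the 50 dimmest detected ones. These counts are a description of the miRNAs on this array, and arms of 1 hairpin and members of 1 family are not independent.

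Markers of each lung cell type listed were present, which is not a test of the tissue label. Endothelial miRNAs held 7.05% ± 0.846 of the summed signal (SD, n = 6), smooth muscle and fibroblast miRNAs 4.86% ± 0.296, epithelial miRNAs 2.05% ± 0.0758 and leukocyte miRNAs 1.97% ± 0.259. In the endothelial list miR-126b was detected in no rat, and in the smooth muscle list miR-145-3p was detected in the 3 males and no female. All 6 epithelial miRNAs were detected in every rat, with miR-141-3p, miR-200a-3p and miR-200b-3p of the miR-200 family at mean signals of 1670, 1548 and 1267. The same held for the 4 leukocyte miRNAs on the array, of which miR-142-3p and miR-150-5p held 0.855% and 0.642%. The 4 ciliated cell miRNAs held 0.932% ± 0.277. Their summed share was 1.21%, 0.606% and 0.890% in the males and 0.909%, 1.30% and 0.678% in the females, a spread of more than 2-fold that did not follow sex.

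Markers of red blood cells were bright, and those of tissues outside the lung were mostly dim or not detected. miR-451-5p had a mean signal of 2382 at rank 34, above each of the epithelial miRNAs. The red blood cell miRNAs miR-451-5p and miR-144-3p together held 1.07%, 1.04% and 1.56% in the males and 0.542%, 0.682% and 0.603% in the females. Striated muscle miRNAs held 0.121% ± 0.0438, most of it miR-133b-3p, a near copy of miR-133a-3p, and the heart and skeletal muscle miRNAs miR-206-3p, miR-208a-3p and miR-208b-3p were detected in no rat. The summed share of the striated muscle list was highest in male 1, at 0.196%, and lowest in female 23, at 0.0799%. The 4 neuronal miRNAs held 0.0359% ± 0.00199, nearly all of it miR-128-3p, which was detected in every rat at a mean signal of 98.8. miR-138-5p was detected in the 3 males, and miR-124-3p and miR-9a-5p in no rat. miR-122-5p, the leading miRNA of hepatocytes, held 0.0138% ± 0.0105. Of the pancreas miRNAs, miR-216a-5p was detected in 5 rats at signals of at most 9.44 and miR-217-5p in 1.

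Single miRNAs differed in how steady they were between rats. The SD of the scaled log2 signal over the 6 arrays was smallest for miR-148b-3p (0.015), whose share of the summed signal varied by 1.09-fold from lowest to highest. miR-497-5p, miR-93-5p, miR-25-3p and miR-24-3p followed with SDs of 0.040 to 0.051. The median SD within a sex was 0.07 in the 67 brightest of the detected miRNAs and 0.18 in the 68 dimmest, and the scanner software's own error had a median of 7.36% and 13.2% of the signal. The spread between rats and the measurement error were not separated.

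The 5 least steady miRNAs had ranks from 126 (miR-3588) to 230 (miR-136-5p), and 3 were highest in the same rat. miR-122-5p had signals of 36.3, 94.8 and 14.5 in the males and 62.7, 15.9 and 17.9 in the females (SD of log2 1.13). miR-136-5p and miR-127-3p, imprinted miRNAs of the Dlk1-Dio3 region, had signals of 51.0 and 86.5 in male 2 and at most 17.4 and 29.3 in the other rats. Male 2 was thus the highest and male 3 the lowest by share for all 3 of these. miR-3588 had signals of 60.2, 37.5 and 86.9 in the males and 107, 120 and 215 in the females, and let-7i-3p 33.5, 32.7 and 35.9 in the males and 6.48, 8.46 and 7.98 in the females. The last 2 separated the sexes, whereas miR-122-5p, miR-136-5p and miR-127-3p did not.

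The labels allow 1 contrast inside the group, males against females, which is also the contrast of the 2 slides. The log2 signals were scaled by the 75th percentile of the detected miRNAs of each array and tested with limma. Of 269 miRNAs, 92 (34.2%) differed at a Benjamini-Hochberg adjusted p below 0.05, with 63 of them at higher and 29 at lower levels in males. Without adjustment 120 had a p below 0.05. That split depended on the scaling: 68.5% of the calls were higher in males here, against 49.5% after quantile normalization, 48.8% after normexp, 51.6% with the probes' own intensities, 41.7% with a floor and dimmer miRNAs added, and 99.0% with no scaling. Among the 20 brightest miRNAs 6 were called, 4 higher and 2 lower in males, with a median log2 difference of 0.03 against 0.04 over all 269.

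The 5 miRNAs with the smallest p were all higher in males under each scaling tried. let-7a-1-3p had signals of 43.1, 36.6 and 43.7 in the males and 11.8, 10.8 and 11.7 in the females, a log2 difference of 1.29 ± 0.05 (SE, limma adjusted p = 0.000119). miR-352 had signals of 716, 598 and 676 against 185, 148 and 171 (1.43 ± 0.07, limma adjusted p = 0.00013). miR-126a-5p had 4549, 3845 and 4406 against 1206, 1119 and 1292 (1.27 ± 0.07, limma adjusted p = 0.000156). In none of these did the sexes overlap, but these are unscaled signals from slides of unlike brightness. The unscaled signals of miR-148b-3p did not overlap either, at 239 to 282 in the males and 170 to 193 in the females. Its scaled log2 difference was 0.001. miR-350 differed by 1.52 ± 0.09 and miR-3068-3p by 1.26 ± 0.08 (limma adjusted p of 0.000198 and 0.000231). After normexp the differences of let-7a-1-3p and miR-350 were 0.35 and 0.10, and neither passed.

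Members of 1 family moved in both directions. Of the 8 let-7 members 6 were called (against 34.2% of all miRNAs), 2 higher and 4 lower in males. miR-98-5p was higher in males by a log2 difference of 0.84 and let-7f-5p by 0.22, and let-7b-5p (-0.43), let-7e-5p (-0.43), let-7c-5p (-0.27) and let-7d-5p (-0.26) were lower (limma adjusted p from 0.000272 to 0.0343). The 4 negative values turned positive with no scaling, which moved the median of all miRNAs by 0.55. let-7f-5p came to 0.03 with normexp and 0.01 with the floor and did not pass there, and let-7c-5p and let-7f-5p were each called in only 6 of 13 alternatives. The share of G and C was 31.8% in miR-98-5p and let-7f-5p, 40.9% in let-7c-5p, let-7d-5p and let-7e-5p and 45.5% in let-7b-5p. Of the 5 miR-30 members tested, miR-30b-5p, miR-30c-5p and miR-30e-5p were called, each higher in males, by 0.27, 0.34 and 0.30, although miR-30b-5p came to 0.01 with normexp and did not pass. miR-26b-5p was higher in males by 0.35 and miR-29c-3p by 0.52, while miR-26a-5p (0.11), miR-29a-3p (-0.07) and miR-29b-3p (0.11) did not pass.

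Beside the 34.2% called over all miRNAs, the marker lists hold few members each. Both red blood cell miRNAs were higher in males, miR-451-5p by 0.96 ± 0.16 and miR-144-3p by 1.51 ± 0.17 (SE, limma adjusted p of 0.00574 and 0.00142). Of 5 smooth muscle and fibroblast miRNAs, miR-145-5p (0.87) and miR-199a-5p (0.52) were higher and miR-214-3p (-0.45) lower in males, the last turning positive with no scaling. Of 3 striated muscle miRNAs miR-133a-3p (0.91) and miR-499-5p (0.44) were higher in males, but after normexp they came to 0.08 and -0.02, and each was called in only 5 of 13 alternatives. miR-199a-5p was called in 6 of 13. The only call among 6 epithelial miRNAs was miR-200c-3p (0.28), which was called in 6 of 13 alternatives and came to 0.08 after quantile normalization. None of the 4 ciliated cell and 4 leukocyte miRNAs passed in limma, and 0 of them had an unadjusted p below 0.05. Among the 13 alternatives miR-150-5p was called in 4, miR-223-3p in 3, miR-142-3p in 2 and miR-142-5p in 1. No ciliated cell miRNA was called in any.

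Base composition moved with the difference between males and females. Across the 236 detected miRNAs with a sequence, the log2 difference correlated with the share of G and C at r = -0.31 (rho = -0.34), a description across miRNAs that share arrays and slides. It was -0.39 in the brighter and -0.35 in the dimmer 118 miRNAs. In the 79 miRNAs of lowest G and C the median difference was 0.22, with 32 called higher and 5 lower in males. In the 79 of highest G and C it was -0.06, with 11 called in each direction. The part of slide and base composition in the male and female difference was not tested, because all males shared 1 slide and all females the other.

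**Figure D5:**
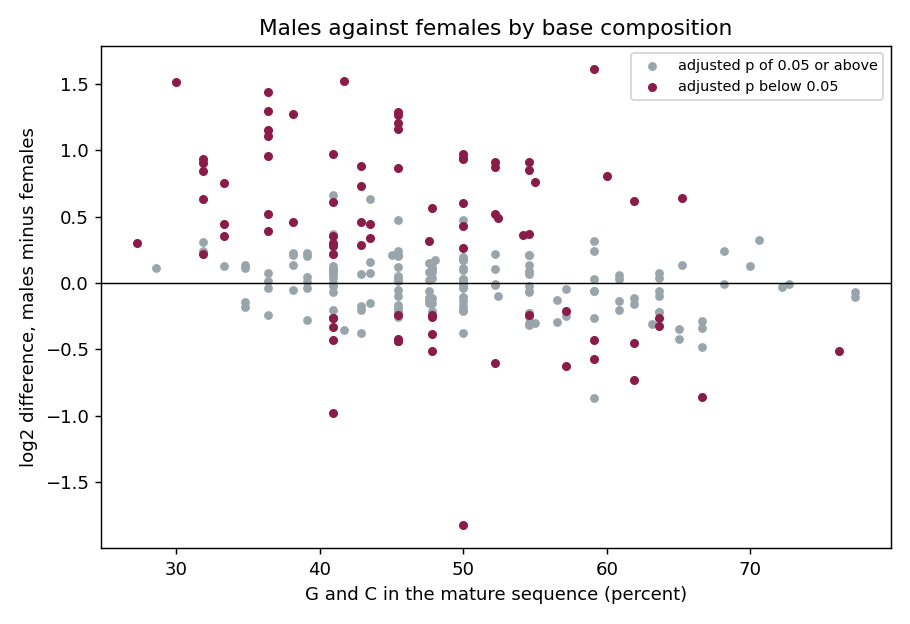
Log2 difference of males minus females after scaling against the percent of G and C in the mature sequence, for the 236 detected miRNAs with a sequence, with called miRNAs in dark red and others in grey. Points at low G and C lie mostly above 0 (median 0.22 in the lowest 79) and those at high G and C lie around it (median -0.06 in the highest 79).

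The arm ratios also differed between males and females, and they need no scaling between arrays. In limma 36 of 57 ratios (63.2%) passed, 15 of them with higher and 21 with lower values in males, and 40 passed without adjustment. The 2 arms were farther apart in females in 24 of the 36 and in males in 12. Over all 57 hairpins they were farther apart in females in 37, so this lean was not particular to the called ratios. For miR-872 the log2 ratio of 5p over 3p was 1.67, 1.64 and 1.68 in the males and 2.78, 2.72 and 2.70 in the females (difference -1.07 ± 0.05, SE, limma adjusted p = 5.91e-05). For miR-22 it was -4.66, -4.71 and -4.55 against -5.71, -5.66 and -5.63 (1.03 ± 0.06, limma adjusted p = 0.000132). For miR-126a it was -2.41, -2.54 and -2.42 against -3.56, -3.39 and -3.51 (1.03 ± 0.07, limma adjusted p = 0.000201), so that miR-126a-5p was nearer to miR-126a-3p in males.

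Next by p were miR-20a with -0.91 ± 0.08 and miR-28 with -1.12 ± 0.10 (SE, limma adjusted p = 0.000433 for both). With the brightest probe of each arm in place of the total gene signal miR-20a came to 0.000783 and did not pass. Among the 5 hairpins that leaned most to either arm, each one that passed had its arms closer together in males. This did not hold beyond those 5 per side. miR-30b, next on the 5p side, passed with its arms farther apart in males (mean log2 ratio 7.57 against 7.04), among the 12 such calls given above. The ratios of let-7i, let-7d, miR-26b and miR-151 were positive and lower in males (differences of -1.81, -0.69, -0.62 and -0.47). Those of miR-29a, miR-143 and miR-101a were negative and higher in males (differences of 1.17, 0.50 and 0.54). The ratios of miR-21, miR-23a and miR-200b did not pass. miR-101a turned to -0.08 with the brightest probe, and miR-26b was called in 4 of 9 alternatives. In these named hairpins the dimmer arm had a mean signal of at most 50.1, and the part of array brightness was not tested.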

How the data were processed

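Total RNA of rat lung (100 ng per array, labelled with Cy3 per the labels) was hybridised to single-colour Agilent rat miRNA arrays. The authors deposited scanner files that came from version 11.5.1.1 of Agilent's Feature Extraction. Each array held 14380 spots of 1730 probes for 719 miRNAs on the build rn4 per the file headers, and the deposited values were intensities with no normalization between arrays. The deposited total gene signal is an intensity that sums up the probes of a miRNA. It is listed at 0.1 where the deposited detection flag, used here as another measure, is not set. The paper given with the series does not describe these miRNA arrays. The deposited series table held 4314 intensities of the 6 arrays, of which 1856 equalled the total gene signal (largest relative difference 0) and 2458 were set to 1 where the miRNA was not detected.

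Shares were taken of each array's summed total gene signal, seeds from RefSeq (GRCr8) and arm ratios within an array, as descriptions. No coordinates are given, because the builds differ. Males and females were compared with limma 3.58.1 (lmFit and eBayes, two-sided) in R 4.3.3 on log2 signals minus the array's 75th percentile over the 269 miRNAs detected on all 6 arrays, and on unscaled log2 arm ratios, with Benjamini-Hochberg adjustment and a threshold of 0.05. Whole-array values were compared with exact permutation tests, two-sided. The fit was tested on simulated data. Each sample was 1 rat per the labels. miRNAs were named by rule: the 20 brightest, the 10 brightest families, the 5 highest, 5 lowest and 5 nearest to equal arm ratios, the 5 most and 5 least variable, 5 on either side of full detection, the 5 smallest p, and lists of cell type markers. The members and lists were chosen with earlier results of these data known. miR-155-5p and miR-486, both listed, are not reported because the array holds no miRNA of those names. Genomic neighbours, near-identical pairs and name numbers were examined after the data were seen, and miRNAs outside the rule are named there as examples.

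Alternatives were other measures of a miRNA (brightest probe, summed probes, normexp with an offset of 50, the series table), other detection rules, other scalings, eBayes with trend and robust options, and leaving out each rat. The series table was added after the data were seen.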

Additional observations from a re-analysis of the deposited data

Results flagged for a closer look

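The share of miR-16-5p, the leading member of the miR-15 and miR-16 family, had 1 rat apart from the others. It was 2.31% in female 22 against 2.12% ± 0.0264 in the other 5 rats, and the gap to the nearest rat was 0.676 of the whole range. Of 59 sets of 6 values examined in this way it was the only one past Dixon's 95% critical value for 6 samples, where chance gives 2.95.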

How the results depend on the processing

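The 269 miRNAs detected on all arrays came to 239 when a probe had to be well above background, 315 on at least 3 arrays and 361 on at least 1. The series table, added later, gave 269 miRNAs, 41.1%, 14 miRNAs, 49.0% and 30 hairpins for the descriptions in the order used below. The normexp correction, which adds an offset to every spot, moved the share of the 10 brightest miRNAs to 35.6%, that of the 5 brightest families to 41.6% and the count of hairpins with arms at least 10-fold apart to 19. It also moved the miRNAs called between males and females to 43, while no scaling gave 205 and the wider filter with a floor 139. The cause was not tested. These 3 settings moved the median of all differences by -0.12, 0.55 and -0.21. Of the 92 calls, 36, 73 and 70 were shared with them.

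Of 28 named miRNAs called between males and females, 9 were called in every alternative and 19 lost the call in at least 1, of which 11 did so with normexp, 10 with the floor and 13 without female 21. The 9 were miR-352, miR-126a-5p, miR-3068-3p, miR-98-5p, miR-29c-3p, miR-145-5p, miR-451-5p, miR-144-3p and miR-3588. Of 15 named arm ratios called, 4 lost the call in at least 1 alternative. Normexp was not among the alternatives for the male and female arm ratios, so this count cannot be set against that of the miRNAs. Among the miRNAs and ratios of smallest p, let-7a-1-3p (0.35, limma adjusted p = 0.104) and miR-350 (0.10, limma adjusted p = 0.725) lost it with normexp, and the arm ratio of miR-20a came to 0.000783 (limma adjusted p = 0.993) with the brightest probe. Leaving out each rat in turn gave 269 to 284 detected miRNAs, 40.9% to 41.3% for the 10 brightest, 14 miRNAs for 50% of the signal each time, 48.9% to 49.2% for the 5 brightest families, 30 to 31 hairpins at least 10-fold apart, 64 to 86 called miRNAs and 27 to 35 called arm ratios. No paired analysis was possible because males and females share no replicate number.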
